A study of Mus musculus with 9 samples.

Results

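The CIS and SOCS proteins are the feedback inhibitors of cytokine signaling through Janus kinases and STAT transcription factors. The family comprises 8 genes, Cish and Socs1 to Socs7, which were taken by gene symbol from the 50686 genes counted in each library and compared between BCR/ABLp185+ cell lines that were wt, Stat5a-/- or Stat5b-/-. The series addresses why STAT5A and STAT5B differ in BCR/ABL-driven leukemia. Each genotype is represented by a single cell line sequenced as 3 technical replicates (9 libraries in all), and p-values therefore measure the spread between libraries of a line and not between independently derived lines. All lines were grown from bone marrow of C57BL/6N mice that were wt or lacked Stat5a or Stat5b in the whole body, all carry the BCR/ABLp185 oncogene, introduced by retrovirus, and none of them received a further treatment.

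As background, each of the 8 proteins carries a central SH2 domain, which binds phosphorylated tyrosines, and a C-terminal SOCS box, which recruits Elongin B, Elongin C and Cullin 5 to form a ubiquitin ligase. SOCS1 and SOCS3 also hold a kinase inhibitory region that blocks Janus kinases directly, CIS and SOCS2 bind cytokine and growth hormone receptors, and SOCS4 to SOCS7 are mostly studied in growth factor and insulin receptor signaling. Cish and Socs2 are classical STAT5 target genes, Socs3 is a classical STAT3 target that STAT5 can also induce, and Socs1 is induced by interferons, so that the level of these transcripts is often read as a trace of upstream STAT activity.

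Shown here are 3 stretches of reference sequence, because they hold the letters that STAT or IRF proteins recognize and belong to members whose transcripts changed. They were read from RefSeq promoter windows of GRCm38.p6, which run from 250 bases before to 50 bases after the annotated start and cover 4 of the 8 members, namely Cish, Socs1, Socs3 and Socs4. Capitals mark matches of TTCNNNGAA, the interferon gamma activated sequence or GAS element bound by STAT dimers, in Cish and Socs3, and of a core of the element bound by IRF proteins, GAAA and again GAAA with any 2 bases between them, in Socs1.
Cish, chr9:107296654-107296683, plus strand: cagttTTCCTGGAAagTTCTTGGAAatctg
Socs3, chr11:117969502-117969530, minus strand: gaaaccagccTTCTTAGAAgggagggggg
Socs1, chr16:10785537-10785786, minus strand: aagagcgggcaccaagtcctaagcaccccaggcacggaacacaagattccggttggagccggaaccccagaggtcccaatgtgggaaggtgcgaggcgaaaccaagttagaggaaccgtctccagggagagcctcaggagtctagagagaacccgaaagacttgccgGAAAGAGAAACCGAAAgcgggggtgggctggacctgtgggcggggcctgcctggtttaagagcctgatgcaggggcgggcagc

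Both strands were searched, and the GAS letters read the same on either strand. In Cish, 2 GAS matches began 0 and 11 bases from the RefSeq start, in a stretch that overlaps an exon and an untranslated region of Cish-201 in GENCODE M21. The GAS match of Socs3 began at -154, and the 2 IRF core matches of Socs1, which overlap each other, began at -83 and -77. The Socs3 match, although before the RefSeq start, lies within the counted span of the gene, chr11:117966079-117970047. GENCODE M21 annotates no exon there. No GAS match was found in the windows of Socs1 and Socs4, and no IRF core match in those of Cish, Socs3 and Socs4. Of 32851 windows of all genes, 8.30% held a GAS match and 0.457% held 2 or more, while 3.44% held an IRF core match and 0.225% held 2 or more.

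Library totals ranged from 11948136 to 19016396 counted reads, and all 8 members passed the filter on low counts together with 13852 genes in total. The targeted transcripts were lower in the lines named for them and were still counted there. Stat5a was at 43.1 ± 6.35 normalized CPM (read counts scaled to TMM-adjusted library size, mean ± SD of n = 3 libraries here and below) in wt, 12.4 ± 1.02 in Stat5a-/- and 83.7 ± 10.2 in Stat5b-/-, whereas Stat5b was at 105.5 ± 1.96, 141.7 ± 15.9 and 63.4 ± 7.72. These gene-level counts do not show which exons the reads came from, and the deposited description of the knockout samples calls them wild-type lines, against their titles and genotype labels. All 12 markers of the B lineage and all 16 markers of T cells had reads in every line. The summed B-lineage level was 6513 to 7098 normalized CPM in wt, 8939 to 9828 in Stat5a-/- and 7889 to 8971 in Stat5b-/-, and the summed T-cell level was 883 to 1232, 1391 to 1635 and 2081 to 2977. Single B-lineage genes did not all follow their sum. Rag1, of the V(D)J recombinase, was at 63.4 to 67.1 normalized CPM in wt and at 0.0902 to 0.838 in the knockout lines, Dntt was at 25.3 to 30.1, 8.46 to 9.44 and 56.6 to 79.5, and Pax5 at 1146 to 1258, 1090 to 1363 and 700.2 to 1056 in wt, Stat5a-/- and Stat5b-/-. Myeloid markers (12 genes) summed to 5.43 to 8.33 normalized CPM in wt, 5.53 to 7.06 in Stat5a-/- and 9.98 to 11.9 in Stat5b-/-. Among them Ctsg was at 0 in every line. Erythroid markers (8 genes) summed to 11.8 to 13.9 in wt, 12.4 to 14.8 in Stat5a-/- and 3.29 to 3.88 in Stat5b-/-. The 8 stromal markers summed to 143 to 174 in wt, 221 to 268 in Stat5a-/- and 293 to 376 in Stat5b-/-. Thy1, a gene that T cells also express, made up nearly all of each sum, and Col3a1 and Pdgfra were at 0 in every line. The part of these cell type markers in the results below was not tested, and in bulk RNA a different number of cells of a type and a different amount of RNA per cell cannot be told apart.

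Cish, Socs1, Socs3 and Socs5 were higher in Stat5a-/- than in wt, none of the 8 was called lower, and 3 of them, Cish, Socs1 and Socs5, exceeded a fold change of 2. A gene was called at an adjusted p under 0.05 by edgeR's quasi-likelihood test over all tested genes, with Benjamini-Hochberg adjustment. By that rule 19.8% of all tested genes were higher and 16.3% lower in Stat5a-/-, or 7.75% and 6.49% with a fold change above 2, against 4 and 0 of the 8 members, or 3 and 0. In Stat5b-/- against wt, Cish, Socs1 and Socs5 were higher and Socs2 was lower, beside 24.2% of all genes called higher and 22.0% lower. With a fold change above 2, 1 member was higher (Socs5) and 0 were lower, beside 10.6% and 8.44% of all genes. Compared directly, 5 members (Cish, Socs1, Socs2, Socs3 and Socs6) were lower in Stat5b-/- than in Stat5a-/- and 0 were higher, beside 17.5% of all genes lower and 16.4% higher. With a fold change above 2, 3 members (Cish, Socs1 and Socs3) were lower and 0 higher, beside 6.60% and 4.81%. Of these 3, Socs1 and Socs3 fell short of 2-fold with an offset for gene GC content fitted in each library (log2 -0.84 and -0.85) and with unscaled totals (-0.95 and -0.98), Socs1 also without Stat5a-/- replicate 3 (-0.84) or Stat5b-/- replicate 3 (-0.95) and Socs3 without Stat5b-/- replicate 2 (-0.92), and both were still called lower at an adjusted p under 0.05 in these fits. The comparisons of each knockout line with wt share the wt libraries, so they are given side by side and not as independent evidence of each other. The median log2 fold change of the 8 members was 0.51 in Stat5a-/- against wt, 0.05 in Stat5b-/- against wt and -0.65 in Stat5b-/- against Stat5a-/-, beside 0.01, 0.02 and 0.02 over all tested genes. The median size of the change, regardless of its direction, was 0.51, 0.47 and 0.65 for the members and 0.33, 0.40 and 0.33 for all tested genes.

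**Figure D1:**
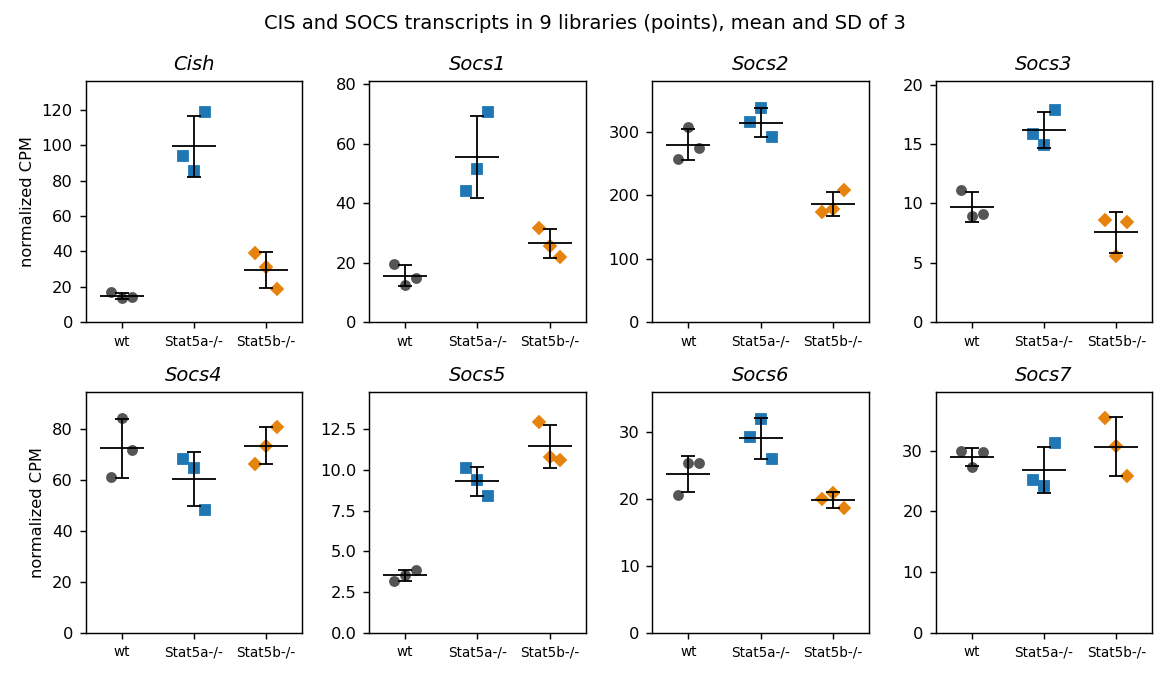
Normalized CPM of the 8 CIS and SOCS transcripts (vertical axes, from 0, scaled for each gene) in the 3 wt, 3 Stat5a-/- and 3 Stat5b-/- libraries. Points are libraries, the horizontal bar is the mean and the error bar the SD of 3. Cish and Socs1 are highest in Stat5a-/- with Stat5b-/- in between, Socs5 is raised in both knockout lines, and Socs2 is lowest in Stat5b-/-.

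Cish encodes CIS, which binds activated cytokine receptors and competes with STAT5 for docking. It lies at chr9:107296026-107302784 on the plus strand (GRCm38; ENSMUSG00000032578.7) and was counted over 6419 bases of exon. Its level was 16.9, 13.4 and 14.2 normalized CPM in the wt libraries, 94.0, 85.4 and 118.6 in the Stat5a-/- libraries and 38.9, 31.3 and 18.4 in the Stat5b-/- libraries. The 3 lines did not overlap, although the lowest Stat5b-/- library was close to the highest wt library. Cish rose 6.71-fold in Stat5a-/- against wt (log2 2.75, SE 0.23, adjusted p = 6.54e-07) and its log2 change in Stat5b-/- was 1.00 (SE 0.22, adjusted p = 0.00266), which fell just short of the 2-fold limit. The direct comparison gave a level 3.35-fold lower in Stat5b-/- than in Stat5a-/- (log2 -1.75, SE 0.22, adjusted p = 4.57e-05). Thus this classical STAT5 target was higher, not lower, in both lines that lack a STAT5 gene. With single libraries left out, the log2 change in Stat5b-/- ranged from 0.73 to 1.25, on both sides of the 2-fold limit, and was called higher in each case. About 11.5% of the counted exon bases overlap antisense genes, and since the counting did not use strand, reads of these stretches cannot be told apart by strand. Of these antisense genes, Gm17040 had 0 to 4 counts in a library and Gm17041 had 0.

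Socs2 encodes an inhibitor of growth hormone receptor signaling and was the most abundant member by counts. It lies at chr10:95385362-95417180 on the minus strand (ENSMUSG00000020027.18). It was at 258, 307 and 275 normalized CPM in wt, 315, 337 and 292 in Stat5a-/- and 173, 178 and 208 in Stat5b-/-. All 3 Stat5b-/- libraries lay below the other 6, while wt and Stat5a-/- overlapped. The transcript was 1.502-fold lower in Stat5b-/- than in wt (log2 -0.59, SE 0.11, adjusted p = 0.000664) and 1.69-fold lower than in Stat5a-/- (log2 -0.76, SE 0.11, adjusted p = 0.000157), and its log2 difference between Stat5a-/- and wt was 0.17 (SE 0.11, adjusted p = 0.252). Hence the pair of classical STAT5 targets in the family moved apart in Stat5b-/- against wt, with Cish higher and Socs2 lower. For every 100 counts of Socs2 there were 6.55, 4.38 and 5.15 counts of Cish in the wt libraries, 29.9, 25.4 and 40.6 in Stat5a-/- and 22.5, 17.6 and 8.88 in Stat5b-/-. These ratios, which do not depend on the scaling between libraries, did not overlap between wt and either knockout line or between the knockout lines.

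SOCS1 blocks Janus kinases downstream of interferon and common gamma chain cytokine receptors. Its gene lies at chr16:10783808-10785536 on the minus strand (ENSMUSG00000038037.4), and its promoter carries the IRF core matches shown above. Levels were 19.4, 12.6 and 15.0 normalized CPM in wt, 44.3, 51.6 and 70.8 in Stat5a-/- and 31.7, 25.7 and 21.9 in Stat5b-/-. As for Cish, the lines did not overlap and Stat5a-/- was highest. Socs1 rose 3.55-fold in Stat5a-/- (log2 1.83, SE 0.20, adjusted p = 1.04e-05) and 1.70-fold in Stat5b-/- (log2 0.76, SE 0.20, adjusted p = 0.00795), and was 2.09-fold lower in Stat5b-/- than in Stat5a-/- (log2 -1.07, SE 0.20, adjusted p = 0.00114). The call in Stat5b-/- against wt was narrowly lost without Stat5b-/- replicate 1, where the log2 change was 0.59 with an adjusted p of 0.0508. It was kept at an adjusted p under 0.05 in every other fit tried, but did not pass when a fold change above 2 was also required.

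SOCS3, which binds the gp130 chain of the IL-6 receptor family and blocks JAK1 and JAK2, was highest in Stat5a-/- like Socs1, but not raised in Stat5b-/-. Its gene lies at chr11:117966079-117970047 on the minus strand (ENSMUSG00000053113.3). The libraries were at 11.2, 8.94 and 9.07 normalized CPM in wt, 15.9, 14.9 and 17.9 in Stat5a-/- and 8.64, 5.60 and 8.45 in Stat5b-/-. Stat5a-/- lay above the other lines, and Stat5b-/- lay below wt by a narrow margin. Socs3 was 1.67-fold higher in Stat5a-/- than in wt (log2 0.74, SE 0.17, adjusted p = 0.00406) and 2.14-fold lower in Stat5b-/- than in Stat5a-/- (log2 -1.10, SE 0.18, adjusted p = 0.000379). Its log2 difference between Stat5b-/- and wt was -0.36 (SE 0.18, adjusted p = 0.116). Both direct Janus kinase inhibitors of the family, Socs1 and Socs3, were thus higher in Stat5a-/- than in either other line.

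Socs5, whose product was described as an inhibitor of IL-4 and EGF receptor signaling, was the least abundant member in wt and was raised in both knockout lines. It lies at chr17:87107679-87137583 on the plus strand (ENSMUSG00000037104.8). The wt libraries had 3.17, 3.54 and 3.87 normalized CPM (50 to 70 counts), while those of Stat5a-/- had 10.1, 9.36 and 8.39 and those of Stat5b-/- had 12.96, 10.8 and 10.6. All 6 knockout libraries lay above the 3 wt libraries, by 2.63-fold in Stat5a-/- (log2 1.40, SE 0.16, adjusted p = 1.49e-05) and 3.24-fold in Stat5b-/- (log2 1.70, SE 0.16, adjusted p = 1.81e-06). The Stat5b-/- libraries were also all above the Stat5a-/- libraries, but this log2 difference of 0.30 (SE 0.15, adjusted p = 0.141) did not pass the test. The order of the means, wt below Stat5a-/- below Stat5b-/-, was also the order of the summed T-cell markers, whose part in this result was not tested.

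For Socs6, Socs4 and Socs7 the log2 differences between lines were 0.55 or less in size. Socs6, at chr18:88665224-88927481 on the minus strand (ENSMUSG00000056153.14), encodes a protein that binds activated KIT and insulin receptor substrates. Its libraries were at 20.5, 25.3 and 25.2 normalized CPM in wt, 29.2, 31.9 and 25.9 in Stat5a-/- and 20.0, 20.8 and 18.6 in Stat5b-/-. Stat5a-/- lay above both other lines, with the lowest Stat5a-/- library near the highest wt library, and wt overlapped with Stat5b-/-. The direct comparison of the knockout lines was called, with Socs6 1.46-fold lower in Stat5b-/- (log2 -0.55, SE 0.13, adjusted p = 0.00496), while the log2 differences from wt were 0.29 in Stat5a-/- (SE 0.12, adjusted p = 0.0864) and -0.26 in Stat5b-/- (SE 0.13, adjusted p = 0.112). Both calls against wt depended on the processing. With an offset for GC content Socs6 was called higher in Stat5a-/- (log2 0.42, adjusted p = 0.00414), and without wt replicate 1 it was called lower in Stat5b-/- (log2 -0.35, adjusted p = 0.0453).

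Socs4 (chr14:47276931-47296098, plus strand, ENSMUSG00000048379.8), whose product was linked to degradation of the EGF receptor, ranged from 61.0 to 84.2 normalized CPM in wt, 48.3 to 68.2 in Stat5a-/- and 66.4 to 80.8 in Stat5b-/-. Socs7 (chr11:97362551-97398542, plus strand, ENSMUSG00000038485.5), whose product binds insulin receptor substrates and adaptor proteins, ranged from 27.3 to 30.0, 24.2 to 31.2 and 25.7 to 35.4. The 3 lines overlapped for both genes. None of their comparisons was called, with log2 differences between -0.26 and 0.28 for Socs4 and between -0.11 and 0.19 for Socs7 and adjusted p from 0.163 to 0.923. A miss of the threshold does not show that the levels were equal, with an SE of 0.14 to 0.15 for these differences. With the GC offset, Socs7 was called higher in Stat5b-/- than in Stat5a-/- (log2 0.31, adjusted p = 0.0238).

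**Figure D2:**
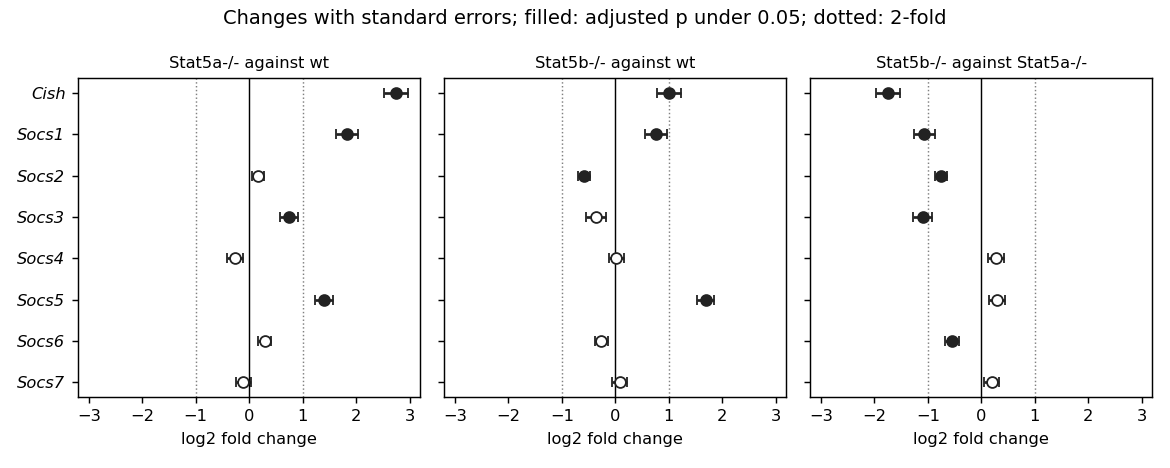
Log2 fold changes (horizontal axes) of the 8 genes in the 3 comparisons, with standard errors as bars. Filled points have an adjusted p under 0.05 and dotted lines mark a fold change of 2. In Stat5b-/- against wt, Cish lies on the dotted line at 1.00, and Socs2 is the filled point on the lower side at -0.59.

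To compare members with each other, levels were divided by exon length (normalized CPM per kb). In wt, Socs2 led at 29.3 ± 2.62 normalized CPM per kb, and Socs1 followed at 12.8 with Socs4 at 10.5, which overlapped. Socs7 (3.99) and Socs3 (3.36) overlapped, as did Socs6 (2.88) and Cish (2.31), and Socs5 was last at 0.803. In Stat5a-/- the order changed to Socs1 at 45.5, Socs2 at 33.0 and Cish at 15.5, with no overlap between neighbours, ahead of Socs4 at 8.78 and Socs3 at 5.61. Socs7 (3.70) and Socs6 (3.52) overlapped, and Socs5 remained last at 2.12. In Stat5b-/-, Socs1 (21.7) and Socs2 (19.5) overlapped at the top, Socs4 followed at 10.7, Cish (4.60) overlapped with Socs7 (4.22), and Socs3 (2.62), Socs5 (2.61) and Socs6 (2.41) overlapped with their neighbours at the bottom. Thus Socs2 was the leading member by length-scaled level in wt alone, and Socs1 either led or shared the lead in the knockout lines. This order depends on the length used, which counts every annotated exon base of a gene, 9531 for Socs2 and 1220 for Socs1. Without division by length Socs2 led in every line. It was at 280, 314 and 186 normalized CPM in wt, Stat5a-/- and Stat5b-/-, against 15.7, 55.5 and 26.5 for Socs1.

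Summed over the family, the level was 66.1 ± 1.36 normalized CPM per kb in wt and 68.4 ± 4.12 in Stat5b-/-, against 117.7 ± 10.8 in Stat5a-/-. The wt and Stat5b-/- sums overlapped, while all 3 Stat5a-/- libraries lay above the other 6. These sums and the shares below hold for length-scaled levels only. Division by length gives Socs1 (1220 bases) more weight and Socs2 (9531 bases) less than normalized CPM does. In normalized CPM, Socs2, the most abundant member, was at 280 in wt and 186 in Stat5b-/-. Behind the similar length-scaled sums of wt and Stat5b-/- stood a different make-up. Socs2 held 41.2%, 47.6% and 44.4% of the sum in the wt libraries and 24.8%, 28.1% and 33.2% in the Stat5b-/- libraries, which overlapped with the 30.4%, 30.8% and 23.6% of Stat5a-/-. Socs1 held 19.5 ± 4.52% in wt, 38.3 ± 5.83% in Stat5a-/- and 31.6 ± 4.08% in Stat5b-/-, and Cish held 3.50 ± 0.463%, 13.1 ± 1.36% and 6.67 ± 2.04%. The share of Cish did not overlap between any of the lines, and that of Socs1 did not overlap between wt and either knockout line.

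**Figure D3:**
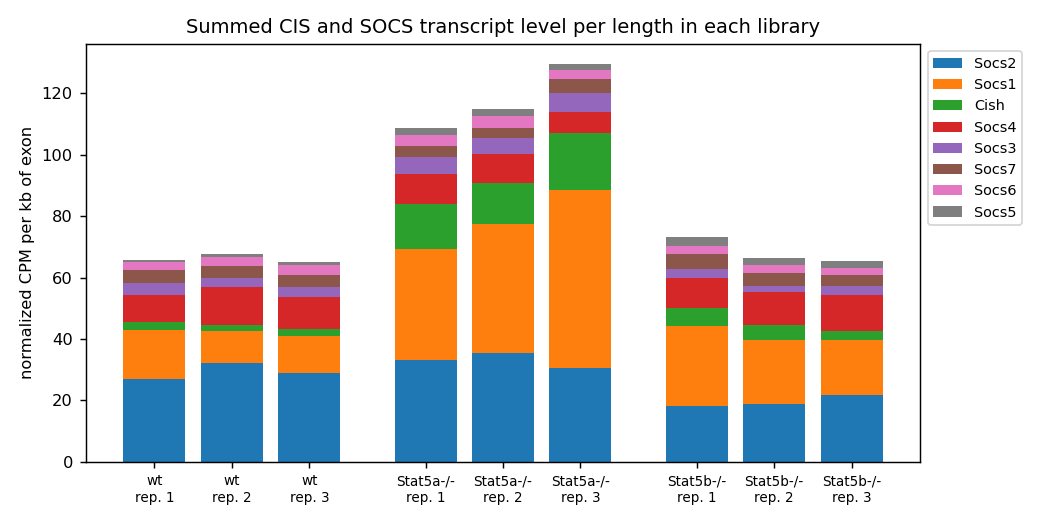
Normalized CPM per kb of exon (vertical axis, from 0) summed over the 8 genes in each of the 9 libraries, with a color for each gene. The 3 Stat5a-/- columns, with a mean of 117.7, stand above the wt (66.1) and Stat5b-/- (68.4) columns, and the share of Socs2 at the base is smaller in both knockout lines than in wt.

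For some members the spread within a line went along with base composition. The libraries of each line differed in how the deviations of all genes from the line mean related to gene GC content, with correlations across genes of 0.48, -0.50 and -0.06 in wt, -0.35, -0.32 and 0.54 in Stat5a-/- and 0.33, 0.16 and -0.46 in Stat5b-/-. Cish (55.1% GC) and Socs1 (58.7% GC) were highest in the library with the highest of these correlations in each line, and Socs4 (38.9% GC) was lowest there. Relative to the mean of its line, Cish was at 1.14, 1.19 and 1.32 in these libraries, Socs1 at 1.24, 1.27 and 1.20, and Socs4 at 0.843, 0.801 and 0.903. The widest departure was that of Cish in Stat5b-/- replicate 3, at 0.624 of its line mean, the Stat5b-/- library with the lowest correlation. Socs3, with the highest GC content of the members (60.4%), did not follow this pattern in Stat5b-/-, where it was at 1.12 in the library with the lowest correlation and at 0.741 in replicate 2. With an offset for GC content the log2 changes of Cish were 2.58 in Stat5a-/- and 0.97 in Stat5b-/- against wt, those of Socs1 were 1.64 and 0.80, and those of Socs3 were 0.55 and -0.30. The calls of these 3 genes against wt were the same as without the offset.

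**Figure D4:**
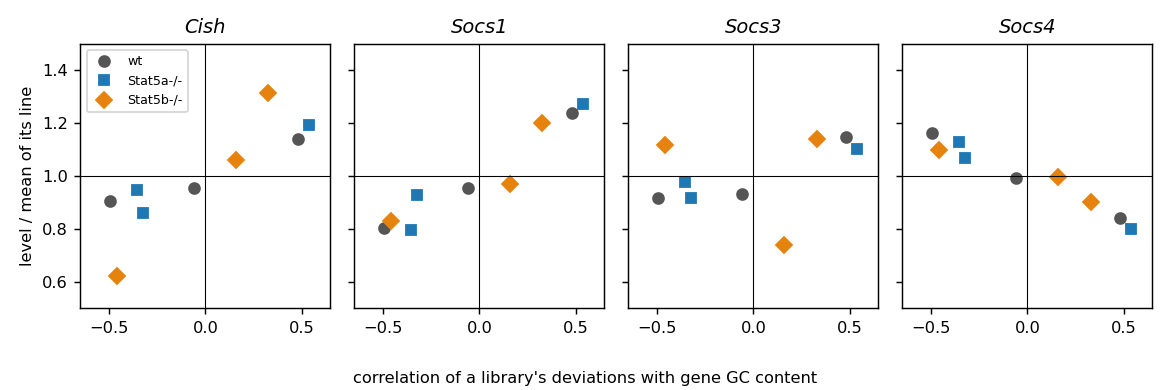
Level of Cish, Socs1, Socs3 and Socs4 in each library divided by the mean of its line (vertical axis) against the correlation, across genes, of that library's deviations with gene GC content (horizontal axis). Each point is 1 of 9 libraries. Cish and Socs1 tend to rise from left to right, to 1.32 and 1.27 at most, and Socs4 tends to fall, to 0.801 at its lowest. The rise is not steady, as Cish is at 1.32 at a correlation of 0.33 and at 1.19 at 0.54. Socs3 follows no such order in Stat5b-/-, with 0.741 in replicate 2 and 1.12 in replicate 3.

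A set of 14 other classical STAT5 target genes was examined beside Cish and Socs2, of which 13 were tested. In Stat5a-/- against wt 5 were higher and 4 lower, in Stat5b-/- against wt 4 were higher and 4 lower, and in Stat5b-/- against Stat5a-/- 4 were higher and 5 lower, with median log2 changes of 0.12, 0.24 and -0.25. The targets therefore did not share 1 direction, and the shares and medians of all tested genes given above are the background of this and the following sets. Pim1, a survival kinase, was at 134.2 ± 19.4 normalized CPM in wt, 340 ± 49.7 in Stat5a-/- and 78.9 ± 12.3 in Stat5b-/-. Like Socs3 it was higher in Stat5a-/- (log2 1.34, SE 0.15, adjusted p = 9.42e-06) and lower in Stat5b-/- than in Stat5a-/- (log2 -2.11, SE 0.15, adjusted p = 2.85e-07), and it was also called lower in Stat5b-/- against wt (log2 -0.77, adjusted p = 0.000912). Il2ra, the alpha chain of the IL-2 receptor, rose in Stat5a-/- (log2 1.81, SE 0.12, adjusted p = 1.04e-07) and was at 13.9 ± 1.30 normalized CPM in wt and 12.8 ± 1.49 in Stat5b-/-. Myc fell in both knockout lines against wt, by 0.55 on the log2 scale in Stat5a-/- and 1.93 in Stat5b-/- (adjusted p = 0.00287 and 5.29e-08), and Id1, an inhibitor of differentiation, also fell, by 0.97 and 1.81 (adjusted p = 0.0102 and 0.000156). Bcl6, a repressor gene that STAT5 is known to silence, was lower in Stat5a-/- than in wt (log2 -0.77, adjusted p = 0.00267) and higher in Stat5b-/- than in Stat5a-/- (log2 1.01, adjusted p = 0.000484).

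**Figure D5:**
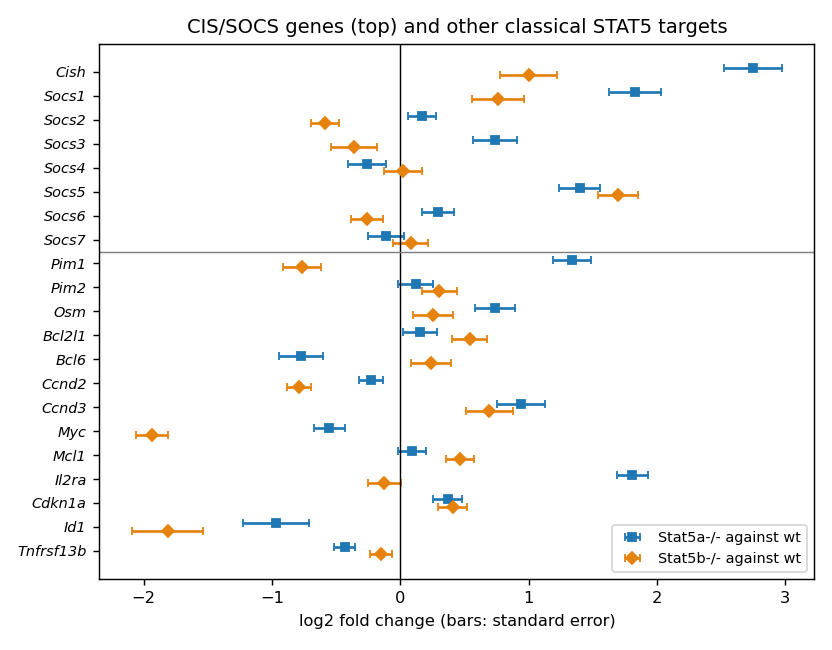
Log2 fold changes against wt (horizontal axis) of the 8 family members, above the line, and of the 13 tested genes of the STAT5 target set, below it. Squares are Stat5a-/-, diamonds Stat5b-/-, and bars are standard errors. Cish reaches 2.75 in Stat5a-/-, Pim1 and Il2ra are higher in Stat5a-/- with Pim1 lower in Stat5b-/-, and Myc reaches -1.93 in Stat5b-/-.

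Of the partners that turn SOCS box proteins into ubiquitin ligases, all 9 genes found were tested, and none was called with a fold change above 2 in any of the 3 comparisons. In Stat5a-/- against wt 3 were higher and 1 lower, in Stat5b-/- against wt 0 were higher and 2 lower, and in Stat5b-/- against Stat5a-/- 0 were higher and 3 lower, with median log2 changes of -0.25, -0.27 and -0.02. Elob, which encodes Elongin B, was higher in Stat5a-/- (log2 0.47, adjusted p = 0.0108), Cul5 was lower there (log2 -0.36, adjusted p = 0.0354), and Eloc had log2 differences of -0.31 and -0.27 from wt in Stat5a-/- and Stat5b-/- (adjusted p = 0.197 and 0.235). Ube2f, the NEDD8-conjugating enzyme that activates Cullin 5, was near the limit at 46.8 ± 3.23 normalized CPM in wt, 92.3 ± 2.67 in Stat5a-/- and 46.5 ± 0.294 in Stat5b-/- (log2 0.98 in Stat5a-/- against wt, SE 0.09, adjusted p = 2.43e-06). The 4 genes of this set named here fall outside the rule for named genes and were chosen after their values were seen.

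Of 15 other SOCS box genes, 13 were tested, and 3 were higher and 5 lower in Stat5a-/- against wt, 6 higher and 3 lower in Stat5b-/- against wt, and 5 higher and 0 lower in Stat5b-/- against Stat5a-/-, with median log2 changes of -0.20, 0.01 and -0.05. Asb2, an ankyrin repeat protein of hematopoietic cells, went with Cish in its direction, at 1.17 ± 0.435 normalized CPM in wt, 6.93 ± 2.28 in Stat5a-/- and 3.91 ± 1.52 in Stat5b-/- (adjusted p = 6.79e-05 and 0.00151 against wt). Among the SPRY domain members, Spsb1 rose in both knockout lines (log2 0.61 and 1.43, adjusted p = 0.0269 and 3.69e-05) and so did Spsb3 (log2 1.04 and 0.78, adjusted p = 0.00947 and 0.0329). Spsb2 was lower in both (adjusted p = 0.00896 and 0.000445), at 1.09 ± 0.159 normalized CPM in wt, 0.456 ± 0.0741 in Stat5a-/- and 0.261 ± 0.0511 in Stat5b-/-, which is near the level of 3 counts in a library, so that its fold change is imprecise. Spsb4 was at 1.05 ± 0.190 normalized CPM in wt, 0.0233 ± 0.0404 in Stat5a-/- and 0.839 ± 0.267 in Stat5b-/-, a level at which the Stat5a-/- libraries lay below that of 3 counts. Wsb2 was called higher in Stat5b-/- against wt (log2 1.14, SE 0.20, adjusted p = 0.000481), with a log2 difference of 0.21 in Stat5a-/- (adjusted p = 0.502).

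The other brakes of the pathway, that is phosphatases, PIAS proteins and adaptors, were tested in all 15 cases. They were called higher in 6 and lower in 0 cases in Stat5a-/- against wt, and higher in 8 and lower in 0 in Stat5b-/- against wt, and 3 were higher and 2 lower in Stat5b-/- against Stat5a-/-, with median log2 changes of 0.24, 0.29 and 0.02. Usp18, which removes ISG15 and blocks the type I interferon receptor, was at 3.20 ± 0.254 normalized CPM in wt, 4.33 ± 0.549 in Stat5a-/- and 16.4 ± 1.72 in Stat5b-/-. Its highest level was thus in Stat5b-/- (log2 2.35 against wt, adjusted p = 7.64e-08, and 1.91 against Stat5a-/-, adjusted p = 1.11e-06), in contrast to Socs1, another interferon-induced brake, whose highest level was in Stat5a-/-. Dok1, an adaptor that dampens tyrosine kinase signaling, rose in both knockout lines, from 7.59 ± 0.597 normalized CPM in wt to 18.3 ± 2.65 in Stat5a-/- and 18.6 ± 1.77 in Stat5b-/- (adjusted p = 1.41e-05 and 1.00e-05).

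Janus kinases and STATs, the proteins on which the family acts, numbered 11 tested genes, the deleted Stat5a and Stat5b included. Of these 2 were higher and 2 lower in Stat5a-/- against wt, 7 higher and 2 lower in Stat5b-/- against wt, and 4 higher and 2 lower in Stat5b-/- against Stat5a-/-, with median log2 changes of 0.25, 0.66 and 0.37. The STAT5 gene left intact was higher than in wt in each knockout line, with Stat5b at a log2 change of 0.43 in Stat5a-/- (adjusted p = 0.00942) and Stat5a at 0.96 in Stat5b-/- (adjusted p = 5.95e-05).

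Of 30 receptor and receptor substrate genes that CIS or SOCS proteins bind or that signal to STAT5, 21 were tested. In Stat5a-/- against wt 11 were higher and 6 lower, in Stat5b-/- against wt 11 were higher and 6 lower, and in Stat5b-/- against Stat5a-/- 7 were higher and 6 lower, with median log2 changes of 0.45, 0.38 and 0.18. The beta chains of the IL-3 and GM-CSF receptors were, like Cish, highest in Stat5a-/-. Csf2rb was at 73.3 ± 7.48 normalized CPM in wt, 225 ± 31.1 in Stat5a-/- and 89.7 ± 17.0 in Stat5b-/-, and Csf2rb2 at 21.8 ± 1.98, 65.0 ± 10.4 and 10.5 ± 1.07, both called higher in Stat5a-/- against wt (adjusted p = 1.69e-06 and 8.86e-07). In Stat5b-/- against wt Csf2rb2 was called lower (log2 -1.05, adjusted p = 5.75e-05), opposite to Cish, and Csf2rb had a log2 difference of 0.29 (adjusted p = 0.120). Reads of these near-identical paralogs may be split between them or dropped, so their separate values are uncertain. Il3ra rose in both lines (log2 1.26 and 1.76, adjusted p = 0.00183 and 8.07e-05), and in Stat5b-/- Il2rb (log2 1.20, adjusted p = 1.61e-05) and Igf1r (log2 1.12, adjusted p = 0.00772) were higher. Crlf2, a chain of the TSLP receptor, was lower in Stat5a-/- than in wt (log2 -1.34, adjusted p = 0.000694) and higher in Stat5b-/- than in Stat5a-/- (log2 2.27, adjusted p = 1.17e-05), and Flt3 was lower in Stat5a-/- (log2 -1.64, adjusted p = 0.000293). Lifr, a chain of the LIF receptor, was at 22.0 ± 2.44 normalized CPM in wt, 11.8 ± 0.923 in Stat5a-/- and 0.561 ± 0.470 in Stat5b-/-. Irs1, a SOCS-bound insulin receptor substrate, was at 8.49 ± 1.18 in wt and at 0.0843 ± 0.0815 and 0.0736 ± 0.0763 in the knockout lines, below the level of 3 counts in a library. Il2ra belongs to this set as well as to the STAT5 targets.

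For the 4 members that passed both limits in at least 1 comparison, the tested genes with the most similar profile over the 9 libraries were found by the root mean square difference of log2 levels, each centred on its own mean. Nearest to Cish was Hivep3, a zinc finger gene, with a difference of 0.16 against a range of Cish of 3.13 on the same log2 scale, and with mean levels of 30.3, 212 and 63.8 normalized CPM in wt, Stat5a-/- and Stat5b-/-. Pkib (0.18) and Pdcd1lg2 (0.29) came next. For Socs1 the nearest were Eng (0.15), Lrrc27 (0.15) and Sufu (0.16), with Eng, the endoglin gene, at 472, 1568 and 706 normalized CPM. For Socs5 they were Icam2 (0.11), Ubqln2 (0.13) and Dguok (0.14), and for Socs3 Sdr39u1 (0.12), Naaa (0.14) and Slc25a42 (0.16). None of these genes is a member of the sets above, and such likeness over 3 lines is a description of these libraries.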

How the data were processed

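RNA-seq counts of 9 libraries were used. Per the labels, libraries were made with a SENSE mRNA kit and sequenced as 50 bp single-end reads, and all came from 1 flow cell lane by the file headers. The authors trimmed reads with Trimmomatic, mapped them with STAR and deposited raw counts per gene, made with featureCounts 1.5.1 on exons of each gene without a strand setting, on GRCm38 and GENCODE M13. Groups follow titles and genotype labels. The members and the gene sets were chosen with earlier results of these data known, so no list is independent evidence.

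Symbols came from GENCODE M21 for 50376 of 50686 genes. Differences were tested in R 4.3.3 on TMM-normalized counts with edgeR 4.0.16 (filterByExpr, glmQLFit and glmQLFTest, all 9 libraries, genotype as the only factor, 6 residual degrees of freedom) with Benjamini-Hochberg adjustment over 13852 genes at 0.05. This replaced the DESeq2 test of the study, which was run as an alternative (DESeq2 1.42.0). A standard error is the size of a log2 fold change divided by the root of its F statistic. From each gene set, those past an adjusted p of 0.05 and a fold change of 2 were named, at most the 3 largest in each direction and comparison, along with Stat5a, Stat5b and, for members past both limits, the 3 nearest genes. Some genes that this rule names are not reported here. GC content came from GENCODE M21 transcripts (99.8% of tested genes), with a loess span of 0.5 for the offset. The steps were tested on simulated counts. Further alternatives were RLE scaling, unscaled totals, no filter on low counts, a minimum mean of 10 counts, only 2 genotypes in the fit, each library left out and the replicate number as a block. Replicates were not duplicates, since their counts differed by a chi-square per degree of freedom of at least 4.63. A planned comparison of protein sequences was not run. Reads carry no molecular identifiers, so counts are not independent molecules, and a gene with few reads is imprecise.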

Additional observations from a re-analysis of the deposited data

Results flagged for a closer look

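For 3 members the changes against wt had opposite signs in the knockout lines and the direct comparison of Stat5b-/- with Stat5a-/- passed the test. The log2 difference was -0.76 for Socs2 (adjusted p = 0.000157), -1.10 for Socs3 (adjusted p = 0.000379) and -0.55 for Socs6 (adjusted p = 0.00496), by edgeR's quasi-likelihood test with 3 libraries a line. In each of these genes all 3 Stat5b-/- libraries were below all 3 Stat5a-/- libraries. This is no further support, since the genes were selected by that same difference. Of all tested genes, 17.5% were called lower in this direct comparison, and the share with opposite signs against wt was not counted. Of the changes against wt behind them, the decrease of Socs2 in Stat5b-/- and the increase of Socs3 in Stat5a-/- were called, and the others were not. Groups of 3 libraries were not tested for outlying samples. The cause of these differences was not tested, and with 1 cell line per genotype the genotype and the line cannot be told apart.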

How the results depend on the processing

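Of 432 log2 fold changes of the 8 members under other settings, 413 kept their direction and their side of the threshold, 1 lost its call, 6 gained one and 12 changed sign. The 12 belong to Socs4 and Socs7 in Stat5b-/- against wt, neither of which was called in any setting. Socs4, at 0.02, became -0.0048 with RLE scaling, -0.0042 with unscaled totals, -0.0045 with DESeq2, -0.0011 with only the 2 genotypes in the fit, -0.0050 with the GC offset and -0.0053 with that offset and the replicate block, and with single libraries left out it ranged from -0.091 to 0.14, including -0.049 without Stat5b-/- replicate 3 and -0.00025, -0.00070 and -0.00083 without Stat5a-/- replicates 1, 2 and 3. Socs7 ranged from -0.060 to 0.20 with single libraries left out, and Socs1 in the same comparison from 0.59 to 0.94, losing its call without Stat5b-/- replicate 1. Socs6 ranged from -0.35 to -0.21 there and was called without wt replicate 1 alone, which made the number of members called lower 1 to 2 over these fits. The GC offset brought Socs6 in Stat5a-/- against wt to a called 0.42, or 0.41 with the replicate block, and Socs7 in Stat5b-/- against Stat5a-/- to a called 0.31, or 0.31 with the block, so that 1 member in place of 0 was called higher in that comparison. Unscaled totals also gave 1 there, Socs5 at 0.41 (adjusted p = 0.0484), but moved the median of all genes to 0.13 in that comparison and to -0.13 in Stat5a-/- against wt, and the calls over all genes from 2739 higher and 2254 lower to 2110 and 3429 in Stat5a-/- against wt and from 2269 and 2429 to 3262 and 1865 in Stat5b-/- against Stat5a-/-. With a fold change above 2 required, 1 member was higher and 0 lower in Stat5b-/- against wt, and 3 were lower in Stat5b-/- against Stat5a-/-. The causes were not tested, other than the narrower rule of the last setting.

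The replicate numbers in the titles did not pair the libraries. Deviations from the line mean had a mean correlation of -0.09 between libraries with the same number and 0.04 between others, and 1 of 9 libraries correlated best with its own number. Blocking on the replicate number, the log2 change of Cish was 2.76 in Stat5a-/- against wt, 0.98 in Stat5b-/- against wt and -1.78 in Stat5b-/- against Stat5a-/-, and the block changed no call of the members.

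Among the members the lowest counts, 50 to 70 in a library, were those of Socs5 in wt. With 1 line per genotype, technical replicates show neither the spread between lines nor whether a difference belongs to the genotype, and between 33.9% and 46.2% of all tested genes were called in each comparison.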
